A study of Homo sapiens with 6 samples.

Results

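Long non-coding RNAs and the host transcripts of small RNAs were followed in Panc-1 cells on Affymetrix Human Genome U133 Plus 2.0 arrays. The members were chosen by name and by measured signal. A probe set belonged when its annotation named only 1 gene, when that symbol began with LINC or SNHG, ended in -AS1, -AS2 or -IT1, had the form MIR...HG or was MALAT1, NEAT1, H19, MEG3, GAS5 or PVT1, and when its mean log2 signal over all 6 arrays was at least 6.0. SSTR5-AS1 was left out by the rule. This gave 298 of the 54675 probe sets on the array, for 246 of the 19775 genes that a probe set names alone. Another 1966 probe sets of the same families lay under the signal floor, so that of 2264 family probe sets naming 1 gene most were dim. The mean over both groups does not use the difference between them, which was therefore open to a test.

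Panc-1 is an established line grown from a human pancreatic carcinoma. The 3 TGFβ arrays came from cells starved of serum for 24 h and then given porcine TGFβ1 for 48 h, at 5 ng/mL per the sample labels, while the study's methods give the same figure in nM, and the conflict was not settled here. The 3 untreated arrays came from the same line without TGFβ, which the methods describe as starved alike and then kept in plain medium. TGFβ drives epithelial-mesenchymal transition in such cultures, in which cells lose their contacts and gain motility, and a single carcinoma line is the only model used. The methods speak of triplicate experiments without naming separate cultures, so the p-values measure the spread between these arrays, which may be technical.

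Long non-coding RNAs are transcribed and often spliced like messenger RNAs but are not known to encode a protein. Some act in the nucleus or at their own locus, some run antisense to a protein-coding gene, and some are mainly the carriers from which microRNAs or small nucleolar RNAs (snoRNAs, which guide chemical modification of ribosomal RNA) are cut. Several host transcripts are better known for the small RNA inside them than for their own sequence, and the array probes report the host transcript, never the mature small RNA.

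The members divided by name into 176 probe sets of antisense RNAs (154 genes), 94 of intergenic RNAs (75 genes), 12 of microRNA hosts (9 genes), 7 of snoRNA hosts (5 genes), 7 of MALAT1, and 1 each of MEG3 and the intronic transcript SPRY4-IT1. Their expression was set by the floor alone. Just above it lay LINC02685 and DIAPH3-AS1 at 6.0 each and MIR4435-2HG at 6.01, and just below it lay ITGB8-AS1 and LINC01664 at 5.99 each and LINC01224 at 5.98 (mean log2 signal). Of the 298 members, 196 reached a linear signal of 100 in at least 1 group, and their median signal was 6.84, against 8.33 for all 21720 probe sets at or above the floor. No probe set of NEAT1, GAS5, H19 or PVT1 was a member.

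The arrays were close to each other. Array medians ran from 5.14 to 5.21, correlations over the probe sets tested were 0.995 to 0.998 within a group and 0.963 to 0.967 between groups, and the median within-group SD of a probe set was 0.084 (log2). The treatment could be read in 4 of 5 genes listed as a check, with 8 of 9 probe sets higher (COL1A1, PMEPA1 and SMAD7) and the 1 of CDH1 lower by 2.02. Of the 6 tested probe sets of epithelial markers 5 were lower with TGFβ (83.3%, against 26.4% of all probe sets tested). Their median signal was 7.56 and the brightest was KRT18 (12.4), while CDH1 averaged 6.57 over the arrays. Over all 11 probe sets of these markers, those under the floor included, the summed linear signal was 4572 to 4785 on TGFβ arrays. On untreated arrays it was 11946 to 12196. No probe set of the leukocyte or acinar markers reached the floor, and 1 each of the endothelial, fibroblast and neuronal markers did, none past the test. The 3′ minus 5′ difference of ACTB control probe sets, a sign of RNA quality, was 0.335 ± 0.060 on TGFβ arrays and 0.554 ± 0.031 on untreated arrays (log2, SD, n = 3), while that of GAPDH was -0.028 ± 0.023 and -0.0096 ± 0.0096. The part of these differences in the results was not tested. In bulk RNA, fewer cells that make a transcript and less of it per cell cannot be told apart.

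The largest rise of any member belonged to a microRNA host, MIR100HG. MIR100HG and MIR31HG were the members named MIR...HG that rose, and their mature microRNAs are shown because the array reports only the transcripts that carry them. RefSeq (GRCh38.p14) places a microRNA gene on the same strand inside 11 of the 243 member genes it locates, which together give 25 mature forms with 25 distinct seeds. The main arms of the 3 microRNAs of MIR100HG that are known across animals, that of MIR31HG, and those of MEG3 and of MIR1915HG, a host that fell, read as follows, with the seed (bases 2 to 8) in capitals.
hsa-miR-125b-5p: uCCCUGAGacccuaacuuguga
hsa-let-7a-5p: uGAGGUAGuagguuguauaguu
hsa-miR-100-5p: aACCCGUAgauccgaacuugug
hsa-miR-31-5p: aGGCAAGAugcuggcauagcu
hsa-miR-770-5p: uCCAGUACcacgugucagggcca
hsa-miR-1915-3p: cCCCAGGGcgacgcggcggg

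In these lines miR-125b-5p lies at chr11:122099809-122099830, let-7a-5p at chr11:122146568-122146589 and miR-100-5p at chr11:122152275-122152296, all on the minus strand within MIR100HG. The miR-31-5p sequence lies at chr9:21512158-21512178 (minus), miR-770-5p at chr14:100852409-100852431 (plus) and miR-1915-3p at chr10:21496576-21496595 (minus). No seed among them was shared. MEG3 and the antisense RNAs ENTPD1-AS1 and TTC28-AS1, which also hold a microRNA gene, were higher by 0.88, 0.38 and 0.23.

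Promoters of the microRNA hosts MIR100HG and MIR31HG and of the intergenic RNAs LINC01003 and LINC00261 are given next. These 4 genes and PARD6G-AS1 had the largest changes among the members, though others also passed 2-fold. No entry was found for PARD6G-AS1. The RefSeq table covers 250 bases before and 50 after a listed start, and held an entry for 201 of the 246 member genes. For MIR100HG, with 6 starts in the table, the first listed is printed. Capitals mark the reverse complement of a searched motif, which is CAGACA (a SMAD element, bound by the TGFβ-regulated SMAD proteins) in MIR100HG and the E-box CACCTG (bound by factors such as those of the SNAIL and ZEB families) in MIR31HG.
MIR100HG, chr11:122100797-122101096, minus strand: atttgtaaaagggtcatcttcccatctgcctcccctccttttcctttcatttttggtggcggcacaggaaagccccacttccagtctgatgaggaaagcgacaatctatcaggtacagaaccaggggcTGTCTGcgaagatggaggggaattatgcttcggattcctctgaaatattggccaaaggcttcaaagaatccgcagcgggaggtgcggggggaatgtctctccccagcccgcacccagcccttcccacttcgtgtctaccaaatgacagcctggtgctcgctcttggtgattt
MIR31HG, chr9:21559749-21560048, minus strand: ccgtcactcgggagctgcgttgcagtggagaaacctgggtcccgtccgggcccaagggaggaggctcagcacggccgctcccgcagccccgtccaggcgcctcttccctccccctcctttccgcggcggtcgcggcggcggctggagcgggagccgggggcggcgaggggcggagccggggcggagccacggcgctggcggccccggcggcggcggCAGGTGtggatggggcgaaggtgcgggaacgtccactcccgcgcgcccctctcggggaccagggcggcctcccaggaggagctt
LINC01003, chr7:152463874-152464173, plus strand: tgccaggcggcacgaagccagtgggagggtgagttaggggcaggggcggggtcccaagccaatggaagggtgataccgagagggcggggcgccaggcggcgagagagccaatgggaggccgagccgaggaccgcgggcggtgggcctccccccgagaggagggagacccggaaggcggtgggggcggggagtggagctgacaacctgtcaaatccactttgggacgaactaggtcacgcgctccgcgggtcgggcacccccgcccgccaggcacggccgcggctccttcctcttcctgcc
LINC00261, chr20:22578593-22578892, minus strand: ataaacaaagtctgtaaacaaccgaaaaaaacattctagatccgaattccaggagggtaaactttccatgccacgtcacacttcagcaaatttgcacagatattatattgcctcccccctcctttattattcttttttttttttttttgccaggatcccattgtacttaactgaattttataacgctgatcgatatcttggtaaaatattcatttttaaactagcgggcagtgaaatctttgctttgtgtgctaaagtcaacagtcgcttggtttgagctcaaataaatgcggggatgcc

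The MIR100HG start printed lies between the miR-125b-1 gene downstream and the let-7a-2 gene upstream, so it is an internal start of a long transcript. The MIR31HG promoter is rich in G and C (77.7%) and that of LINC00261 is poor in them (37.0%). On both strands, CAGACA was found in 14.1% of the members' 249 promoters and in 16.9% of all 35116 promoters of the table. CACCTG was found in 22.1% and 20.6%, the E-box CACGTG in 8.03% and 7.26%, and the AP-1 element TGACTCA in 5.62% and 4.95%, again members before all promoters. The palindromic SMAD element GTCTAGAC was in none of the members' promoters and in 0.202% of all. Members raised by at least 1.5-fold had 23 promoters from 15 genes, and several starts of 1 gene are not independent. Of these promoters 3 (13%) held CAGACA, 3 held TGACTCA, 3 held CACGTG and 5 (21.7%) held CACCTG. Members lowered as much had 43 promoters from 34 genes. Their shares were 18.6% for CAGACA, 4.65% for TGACTCA, 11.6% for CACGTG and 23.3% for CACCTG. GTCTAGAC does not contain CAGACA, the E-boxes differ in their central letters, and a match describes the letters only.

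The comparison of TGFβ with untreated cells was made with limma on all 21720 probe sets at or above the floor, with the replicate number as a block and Benjamini-Hochberg adjustment over all of them. A probe set was called when its adjusted p was under 0.05. Fold changes are differences of mean log2 signal, TGFβ minus untreated. Of the 298 member probe sets 147 were called (49.3%), against 50.5% of all probe sets tested. Members were called higher in 46 cases (15.4%), where 24.1% of all probe sets were, and lower in 101 cases (33.9%), where 26.4% of all were. Thus 68.7% of the called members were lower, and 52.2% of all called probe sets. At 1.5-fold or more, 19 members were higher (6.38%, against 6.19% of all) and 38 were lower (12.8%, against 7.1% of all). At 2-fold or more, 6 were higher (2.01%, against 2.04% of all) and 8 lower (2.68%, against 1.83% of all).

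The members' groups of 3 arrays did not overlap in 168 probe sets (56.4%), compared with 61.9% of all probe sets tested. The median change of the members was -0.07 and that of all probe sets -0.0046. Of the 246 member genes, 42 had at least 1 probe set called higher, 88 had at least 1 called lower and 117 had none called. The same count was not made over all genes. By another measure, the mean over a gene's probe sets, 54.2% of all 11054 genes tested were called in either direction. Most members were dim. Between 6 and 7 on the log2 scale 13 of 164 members were higher and 51 lower, where 19.2% and 24.6% of all probe sets in that range were. Between 7 and 8 there were 15 higher and 27 lower of 73, where 23.8% and 29.7% of all were. Between 8 and 9 there were 10 higher and 10 lower of 30 (25.8% and 29.6% of all), and from 9 upwards 8 higher and 13 lower of 31 (26.5% and 23.9% of all).

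**Figure D1:**
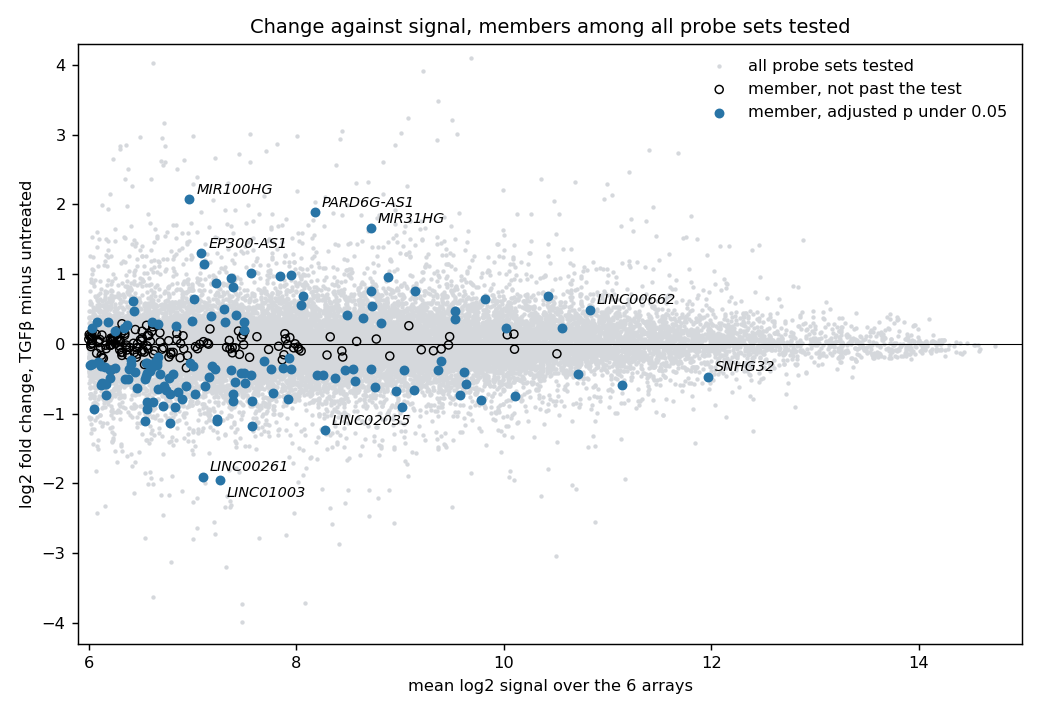
Log2 fold change (TGFβ minus untreated, vertical axis) against mean log2 signal over the 6 arrays (horizontal axis) for the 298 members, filled where called, over all 21720 probe sets tested in grey. MIR100HG, PARD6G-AS1 and MIR31HG stand at the top, and LINC00261 and LINC01003 at the bottom, with most members between 6 and 8 in signal.

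Among the microRNA hosts, MIR100HG read 8.01, 7.94 and 8.07 with TGFβ, against 5.99, 5.96 and 5.85 in untreated cells. That is 4.21-fold higher (2.07 ± 0.070 log2, SE), with a limma adjusted p of 1.7e-05, and the untreated arrays all lay under the floor. MIR31HG, the host of miR-31, read 9.53, 9.56 and 9.55 with TGFβ, against 7.85, 7.81 and 8.02 in untreated cells. It was 3.15-fold higher (1.66 ± 0.067, adjusted p 2.94e-05), and its TGFβ arrays were nearly identical. The protein-coding genes that RefSeq places over these loci, BLID over MIR100HG and IFNE over MIR31HG, were under the floor in both groups.

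The other microRNA hosts changed little or fell. MIR1915HG had 3 probe sets, of which 2 were lower, by 0.56 and 0.53, and the remaining probe set differed by -0.19 (adjusted p 0.0556). Its brightest lowered probe set read 8.41, 8.22 and 8.27 with TGFβ, against 8.79, 8.85 and 8.86 in untreated cells. MIR3936HG was lower by 0.27 although its groups overlapped, and the -0.17 of MIR210HG, host of the hypoxia-regulated miR-210, missed the test. The probe sets of MIR9-1HG (-0.13 and 0.10), MIR550A3HG (0.00), MIR4435-2HG (0.11) and MIR1-1HG (0.15), the last a host of muscle microRNAs, also missed it. In all, 2 of the 12 probe sets were higher (16.7%, against 24.1% of all) and 3 lower (25%, against 26.4%). The other 7 were not past the test, and the median change was -0.07. The proteins that cut, export and load microRNAs moved both ways. Of their 29 probe sets 7 were higher (24.1%, against 24.1% of all) and 10 lower (34.5%, against 26.4%). The median was -0.12, and without replicate 2 the number higher was 4. Among these proteins AGO2, the slicing Argonaute, was higher by 0.58. All but 1 of the 7 tested probe sets of TNRC6B, a silencing adaptor of Argonaute, were lower, by as much as 1.06.

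The snoRNA hosts split by gene. Their median signal was 9.14, against 8.33 for all probe sets tested, but SNHG24 was dimmer. SNHG17, which carries the SNORA71 family of pseudouridylation guides, read 9.49, 9.53 and 9.54 with TGFβ, against 8.74, 8.78 and 8.76 in untreated cells. Its other member probe set read 9.10, 9.06 and 9.14 with TGFβ, against 8.24, 8.37 and 8.42 in untreated cells. Both were thus higher, by 0.76 each, with no overlap. Probe set 1568249_at, annotated with SNORA71B beside SNHG17 and so no member, differed by 0.05 and missed the test. SNHG24 read 7.75, 7.69 and 7.61 with TGFβ, against 6.89, 6.59 and 6.13 in untreated cells, a rise of 1.15 ± 0.12 (adjusted p 0.000605). Its untreated arrays were spread more widely than those of any other member changed 2-fold. SNHG33, which holds SNORA63D and SNORA63E, had 1 probe set higher by 0.35 and 1 that differed by 0.13 and was not past the test.

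SNHG19 and SNHG32, which hold box C/D snoRNAs, the methylation guides, were lower. SNHG19, host of SNORD60, read 8.55, 8.93 and 8.92 with TGFβ, against 9.46, 9.52 and 9.40 in untreated cells, lower by 0.66. SNHG32, host of SNORD48 and SNORD52 and the brightest of all members, read 11.65, 11.81 and 11.74 with TGFβ, against 12.17, 12.20 and 12.24 in untreated cells, lower by 0.47. In both genes every TGFβ array lay under every untreated array. THAP9-AS1, an antisense RNA by name that also holds box C/D snoRNAs (SNORD143 and SNORD144), differed by 0.26 and missed the test. EPB41L4A-AS1, an antisense RNA by name that holds the pseudouridylation guide SNORA13, read 9.70, 9.74 and 9.75 with TGFβ, against 10.44, 10.59 and 10.42 in untreated cells, lower by 0.75. Altogether 4 of the 7 snoRNA-host probe sets were higher (57.1%, against 24.1% of all) and 2 lower (28.6%, against 26.4%). The other 1 was not past the test, and the median change was 0.35. Of the proteins of snoRNA particles and their assembly factors, 13 of 15 probe sets (11 genes) were higher, where 24.1% of all were. None was lower, where 26.4% of all were, and the median was 0.29. Examples were GAR1 (0.67), NOP58 (0.31) and NOP10 (0.28), and fibrillarin (FBL) was at 0.0018. Without replicate 3, 7 of these probe sets were called higher. Protein-coding hosts of snoRNAs, mostly ribosomal protein genes, had 1 of 13 higher (7.69%) and 2 lower (15.4%), with a median of -0.10. The number lower ran from 0 to 8 over the alternatives.

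**Figure D2:**
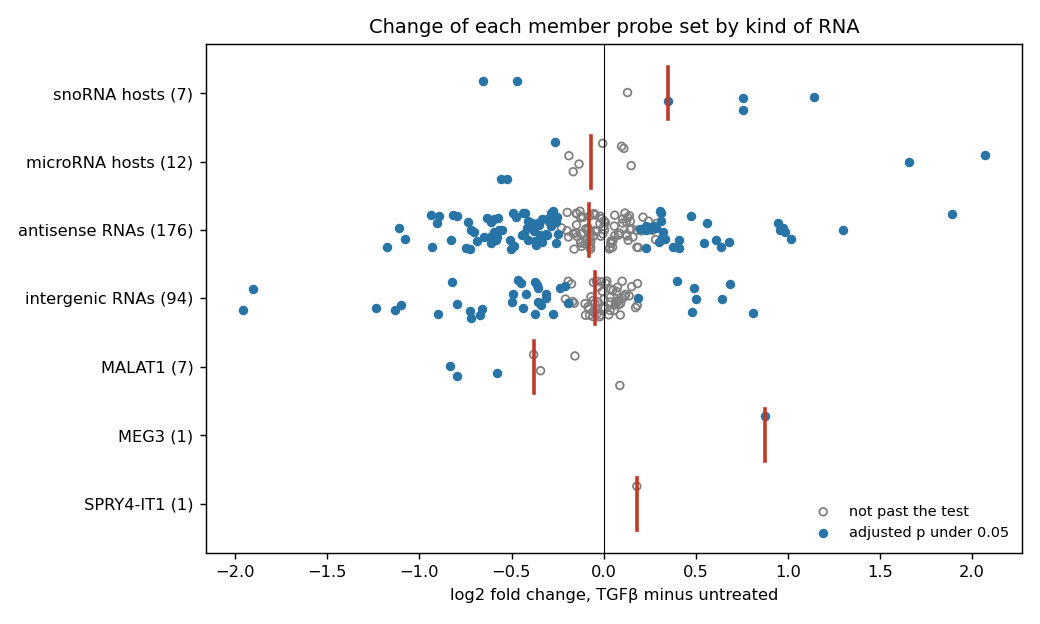
Log2 fold change (TGFβ minus untreated) of each of the 298 member probe sets, in rows by kind of RNA with the number of probe sets in brackets; filled points were called, and the red bar is the row's median. The microRNA and snoRNA hosts hold both rises and falls, and the antisense and intergenic rows have more called points left of 0 than right of it.

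MALAT1, an abundant nuclear RNA of splicing speckles, had 7 member probe sets that did not give the same answer. Its brightest, 224558_s_at, read 9.02, 9.64 and 9.48 with TGFβ, against 10.26, 10.26 and 10.02 in untreated cells, lower by 0.80 ± 0.14 (adjusted p 0.0045). Probe set 1558678_s_at read 8.98, 9.63 and 9.43 with TGFβ, against 10.19, 9.81 and 9.78 in untreated cells, lower by 0.58 (adjusted p 0.0448). Probe set 223577_x_at read 5.63, 6.47 and 6.33 with TGFβ, against 7.15, 7.20 and 6.57 in untreated cells, lower by 0.83 ± 0.22 (adjusted p 0.0213). These 3 had groups that did not overlap.

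The 4 remaining MALAT1 probe sets missed the test and their groups overlapped. Probe set 224559_at read 7.59, 8.07 and 7.76 with TGFβ, against 8.30, 7.91 and 7.67 in untreated cells. Probe set 223940_x_at read 6.51, 7.04 and 6.76 with TGFβ, against 7.43, 6.81 and 7.09 in untreated cells. Their differences were -0.16 and -0.34. Probe set 224568_x_at read 5.47, 6.43 and 6.17 with TGFβ, against 6.61, 6.33 and 6.27 in untreated cells. Probe set 224567_x_at read 6.20, 6.51 and 6.24 with TGFβ, against 6.46, 6.25 and 5.98 in untreated cells, the only 1 of the 7 with a positive difference (0.09). TGFβ replicate 1 was the lowest array in 6 of these 7 probe sets, and within the untreated group replicate 1 was the highest in 6. The median SE of the 7 was 0.19, against 0.072 for all members. Without the pair of replicate 1, the lowering of 223577_x_at was 0.49 and that of 1558678_s_at 0.26. This last probe set also missed the test without a signal filter (adjusted p 0.0555) and after quantile normalisation (adjusted p 0.0524), and as a mean over its 7 probe sets MALAT1 differed by -0.43 and was not past the test.

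**Figure D3:**
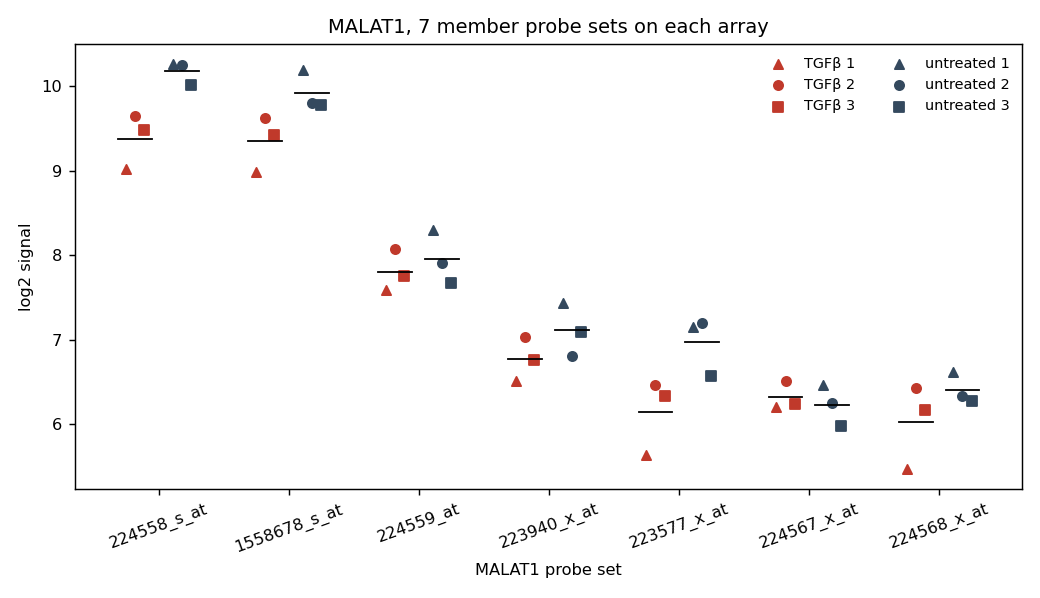
Log2 signal of the 7 MALAT1 probe sets on each array, TGFβ (red) left of untreated (dark), with the replicate number by symbol and the group mean as a bar. Separation of the groups is seen in 224558_s_at, 1558678_s_at and 223577_x_at, and TGFβ replicate 1 is the lowest point of most probe sets.

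The protein partners of nuclear RNA bodies were mixed. Of 31 tested probe sets of paraspeckle proteins 4 were higher (12.9%, against 24.1% of all) and 9 lower (29%, against 26.4%). The median was -0.08, and 2 were higher without replicate 2 and 1 without replicate 3. NONO missed the test in all 3 of its probe sets, and ZNF24 was lower in all 3, by 0.38 to 0.64. MEG3, an imprinted RNA expressed from the maternal copy that carries miR-770, read 7.33, 7.91 and 7.76 with TGFβ, against 6.87, 6.72 and 6.76 in untreated cells. It was 1.84-fold higher (0.88 ± 0.14, adjusted p 0.0028) with every TGFβ array above every untreated array. SPRY4-IT1, from an intron of the Sprouty gene SPRY4, read 7.47, 7.67 and 7.65 with TGFβ, against 7.40, 7.38 and 7.45 in untreated cells, and its difference of 0.18 missed the test (adjusted p 0.0648) although the groups did not overlap.

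**Figure D4:**
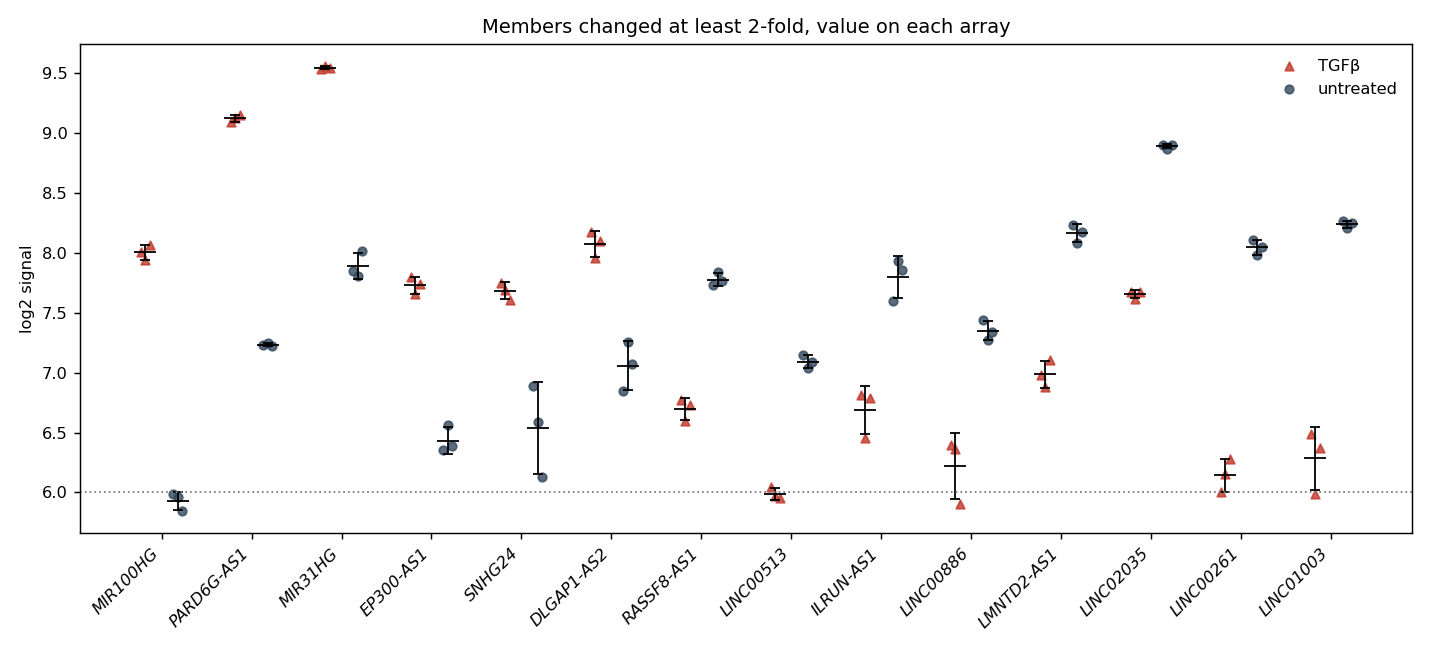
Log2 signal on each array of the 14 probe sets changed at least 2-fold, TGFβ (triangles) left of untreated (circles), with group mean and SD (n = 3) in black and the signal floor of 6.0 dotted. From left to right the members run from MIR100HG (2.07) to LINC01003 (-1.96), and in none of them do the groups overlap.

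Among antisense RNAs, named for the gene they overlap or face, 31 of 176 probe sets were higher (17.6%, against 24.1% of all probe sets tested) and 63 lower (35.8%, against 26.4%). Without replicate 3 the number called higher was 20. PARD6G-AS1, named for a polarity protein of the PAR6 family, read 9.09, 9.12 and 9.15 with TGFβ, against 7.23, 7.25 and 7.22 in untreated cells. It was 3.71-fold higher (1.89 ± 0.057, adjusted p 1.35e-05), and both groups were tight. EP300-AS1, named for the acetyltransferase p300, read 7.80, 7.66 and 7.74 with TGFβ, against 6.35, 6.56 and 6.39 in untreated cells, 2.46-fold higher. DLGAP1-AS2 read 8.18, 7.96 and 8.10 with TGFβ, against 6.85, 7.26 and 7.07 in untreated cells in its stronger probe set and 7.95, 7.74 and 7.86 with TGFβ, against 6.67, 7.18 and 6.86 in untreated cells in the other. Both probe sets were thus about 1 log2 unit higher (1.02 and 0.95).

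Rises of 1.5-fold to 2-fold followed in 6 further antisense RNAs. PRRT3-AS1 read 8.62, 8.24 and 8.48 with TGFβ, against 7.35, 7.55 and 7.49 in untreated cells, higher by 0.98. ST20-AS1 read 8.55, 8.22 and 8.22 with TGFβ, against 7.19, 7.35 and 7.53 in untreated cells, also higher by 0.98. FAM131B-AS2 read 9.42, 9.28 and 9.38 with TGFβ, against 8.30, 8.45 and 8.47 in untreated cells, higher by 0.96. These were bright enough to lie a log2 unit or more above the floor in both groups. ZNF232-AS1 read 10.83, 10.65 and 10.82 with TGFβ, against 9.93, 10.16 and 10.16 in untreated cells, higher by 0.68, and its second probe set was higher by 0.55. HOXD-AS2, from the HOXD cluster of body-axis genes, read 7.13, 7.39 and 7.49 with TGFβ, against 6.63, 6.68 and 6.77 in untreated cells, higher by 0.64. NUTM2A-AS1 read 6.95, 6.63 and 6.61 with TGFβ, against 5.97, 6.20 and 6.20 in untreated cells, higher by 0.61. In none of these 6 did the groups overlap.

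Falls were more numerous. LMNTD2-AS1 read 6.98, 6.88 and 7.10 with TGFβ, against 8.23, 8.09 and 8.18 in untreated cells, 2.26-fold lower, while its other probe set differed by -0.23 and missed the test. ILRUN-AS1, named for a regulator of inflammation, read 6.81, 6.46 and 6.79 with TGFβ, against 7.60, 7.93 and 7.86 in untreated cells, 2.16-fold lower. RASSF8-AS1, named for a Ras-association protein, read 6.77, 6.59 and 6.73 with TGFβ, against 7.73, 7.84 and 7.76 in untreated cells, 2.11-fold lower. These were the antisense RNAs that fell more than 2-fold, each with separated groups.

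The other falls were smaller, and the RNAs are grouped by the gene in their name, which need not change with them. At their brightest probe sets, IDH1, PRKAG2, PSMA3 and PSMG3 missed the test, while ZBED5 and NNT were lower. LIPT2 and SLC9A3 were not tested. ZBED5-AS1 was among the brighter ones and read 8.49, 8.65 and 8.55 with TGFβ, against 9.48, 9.50 and 9.43 in untreated cells, lower by 0.91. IDH1-AS1, named for a cytosolic isocitrate dehydrogenase, read 6.36, 6.03 and 6.40 with TGFβ, against 7.12, 7.21 and 7.14 in untreated cells, lower by 0.89. PRKAG2-AS1, named for a subunit of the energy sensor AMPK, read 5.63, 5.48 and 5.64 with TGFβ, against 6.55, 6.48 and 6.52 in untreated cells, lower by 0.93. All TGFβ values of the last lay under the floor. NNT-AS1, named for the mitochondrial transhydrogenase, read 7.34, 6.94 and 7.20 with TGFβ, against 7.96, 7.94 and 8.04 in untreated cells, lower by 0.82. PSMA3-AS1, named for a proteasome subunit, read 6.46, 6.52 and 6.52 with TGFβ, against 7.18, 7.28 and 7.42 in untreated cells, lower by 0.79. LIPT2-AS1, named for a lipoyl transferase, read 7.55, 7.45 and 7.26 with TGFβ, against 8.16, 8.11 and 8.10 in untreated cells, lower by 0.70. Each of these 3 kept TGFβ arrays under untreated arrays without overlap. PSMG3-AS1, named for a proteasome assembly chaperone, read 6.16, 6.01 and 6.27 with TGFβ, against 6.72, 6.68 and 6.95 in untreated cells, lower by 0.63. SLC9A3-AS1, named for a sodium-proton exchanger, read 5.91, 6.37 and 6.35 with TGFβ, against 7.23, 6.79 and 7.10 in untreated cells, lower by 0.83 with the widest spread of this group (SE 0.16).

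Others are named for regulators of transcription and chromatin. TAF1A-AS1, named for a factor of RNA polymerase I, read 5.97, 6.21 and 6.10 with TGFβ, against 7.07, 7.14 and 6.86 in untreated cells, lower by 0.94. FOXD3-AS1, named for a forkhead factor, read 7.01, 7.09 and 6.99 with TGFβ, against 7.61, 7.85 and 7.79 in untreated cells, lower by 0.72. TFAP2A-AS1, named for the factor AP-2α, read 6.42, 6.35 and 6.78 with TGFβ, against 7.25, 7.05 and 7.32 in untreated cells, lower by 0.69, and its second probe set was lower by 0.31. All 3 had separated groups. ASH1L-AS1, named for a histone methyltransferase, read 6.69, 6.87 and 6.90 with TGFβ, against 7.51, 7.38 and 7.39 in untreated cells, lower by 0.61. PAXIP1-AS2, named for a chromatin and DNA repair protein, read 5.61, 6.01 and 5.86 with TGFβ, against 6.56, 6.38 and 6.31 in untreated cells, lower by 0.59.

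The brightest of the lowered antisense RNAs was OIP5-AS1, a conserved cytoplasmic RNA also called cyrano. Its brightest probe set read 10.89, 10.74 and 10.90 with TGFβ, against 11.39, 11.48 and 11.42 in untreated cells, lower by 0.58, just under the 1.5-fold mark. A second probe set read 9.16, 9.20 and 9.27 with TGFβ, against 9.92, 10.10 and 9.81 in untreated cells, lower by 0.74. The remaining probe set differed by 0.10 and missed the test. SCAMP1-AS1 read 8.44, 8.47 and 8.45 with TGFβ, against 9.10, 9.01 and 9.11 in untreated cells, lower by 0.62. WDFY3-AS2 read 6.63, 6.25 and 6.38 with TGFβ, against 6.93, 7.08 and 7.08 in untreated cells, lower by 0.61, and 1 more of its 3 probe sets was lower, by 0.58. MELTF-AS1, named for melanotransferrin, read 6.33, 6.37 and 6.33 with TGFβ, against 7.04, 7.05 and 6.89 in untreated cells, lower by 0.65. In these RNAs the lowered probe sets did not overlap between groups. IQCH-AS1 read 5.71, 5.83 and 5.87 with TGFβ, against 6.38, 6.58 and 6.65 in untreated cells, lower by 0.73. NRSN2-AS1 read 6.74, 6.54 and 6.63 with TGFβ, against 7.15, 7.19 and 7.36 in untreated cells, lower by 0.60. FGD5-AS1, second in signal among antisense RNAs, read 10.58, 10.45 and 10.46 with TGFβ, against 10.92, 10.97 and 10.89 in untreated cells, lower by 0.43 and under 1.5-fold.

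Antisense RNAs were set beside the genes they are named for, each gene taken at its brightest probe set. Of 155 antisense and intronic member genes, 138 had the partner on the array under its own name and 110 of those partners were tested. Both the RNA and its partner were called in 32 pairs, of which 3 were higher in both, 17 lower in both and 12 opposite (6 with the RNA higher, 6 with the RNA lower). In another 27 pairs only the RNA was called, in 35 only the partner, and in 16 neither. Of the 110 partners 19 were higher and 48 lower, where 24.1% and 26.4% of all probe sets tested were. With falls common among both RNAs and partners, pairs lower in both arise without any link. Whether their number differed from that expected without a link was not tested. The pair counts moved with single replicates. Without replicate 2 there were 11 pairs called the same way and 5 called opposite ways, and without replicate 3 there were 8 and 4. Whether the probes distinguish the strands where transcripts overlap was not checked, so that in an overlap the signal of the RNA and of its partner cannot be told apart.

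Pairs that fell together included TFAP2A-AS1 with TFAP2A, whose mean signal was 10.2 with TGFβ and 11.5 in untreated cells (-1.31), RASSF8-AS1 with RASSF8 (-0.50) and NNT-AS1 with NNT (-0.65). TNRC6C-AS1 was lower by 0.27 beside a fall of 1.02 in TNRC6C, a silencing adaptor. CLN8-AS1 was higher by 0.56 beside CLN8, a protein of the endoplasmic reticulum, at 0.93. Opposite pairs included PARD6G-AS1, whose partner PARD6G was lower by 0.25, and PXN-AS1, lower by 0.44 while PXN, the focal adhesion protein paxillin, was higher by 0.92. NIFK-AS1 was lower by 0.25 while NIFK, a nucleolar protein, was higher by 0.71, and ELOVL2-AS1 lower by 0.26 while the elongase ELOVL2 was higher by 0.66. Some partners moved where the RNA did not pass the test. NR2F1, an orphan nuclear receptor, averaged 8.62 with TGFβ and 10.1 in untreated cells (-1.51) beside -0.08 for NR2F1-AS1, and PIK3CD, a catalytic subunit of PI3-kinase, was higher by 1.12 beside 0.12 for PIK3CD-AS1.

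**Figure D5:**
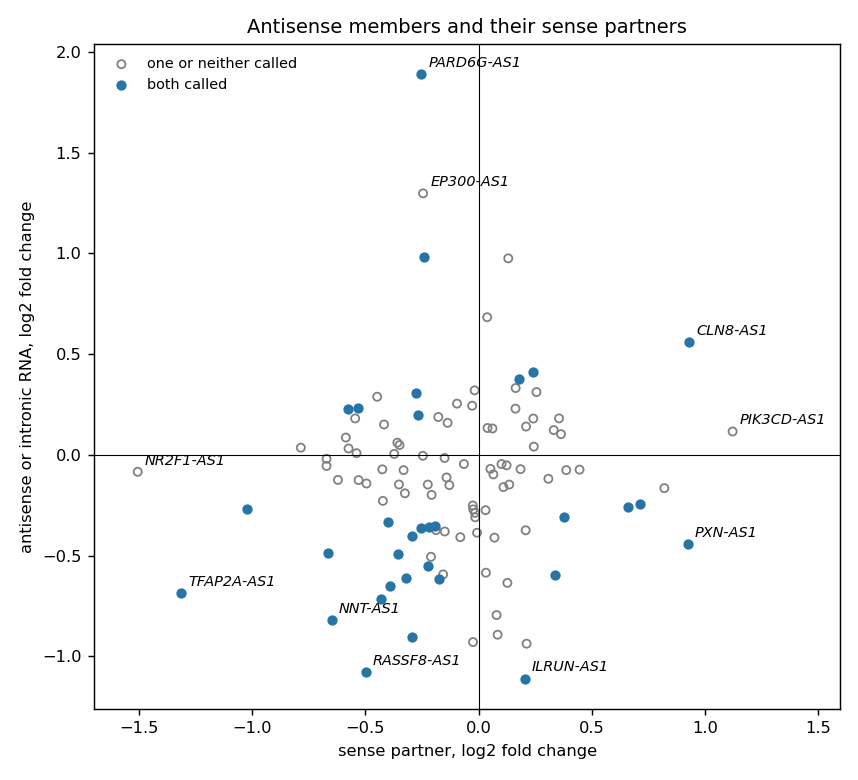
Log2 fold change (TGFβ minus untreated) of 110 antisense or intronic member RNAs (vertical axis) against that of the sense partner (horizontal axis), each at its brightest probe set; filled points are the 32 pairs with both called. Filled points lie in all 4 quadrants, most of them in the lower left, with PARD6G-AS1 at the top beside a small fall of PARD6G.

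Intergenic RNAs held the deepest falls. LINC01003 read 6.49, 5.99 and 6.37 with TGFβ, against 8.27, 8.21 and 8.25 in untreated cells, 3.88-fold lower (-1.96 ± 0.094, adjusted p 4.6e-05). LINC00261, an RNA known from definitive endoderm, read 6.0, 6.15 and 6.28 with TGFβ, against 8.11, 7.98 and 8.05 in untreated cells, 3.74-fold lower (-1.90 ± 0.081, adjusted p 3.36e-05). Both were well above the floor in untreated cells and close to it with TGFβ. Their nearest protein-coding neighbours in RefSeq also fell, each read at its brightest probe set only, of 3 for FOXA2 and 6 for KMT2C. FOXA2, a forkhead factor of endoderm and the neighbour of LINC00261, averaged 7.58 ± 0.10 with TGFβ and 8.73 ± 0.074 in untreated cells (log2, SD, n = 3), a difference of -1.15. KMT2C, a histone methyltransferase and the neighbour of LINC01003, was lower by 0.85.

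LINC02035 read 7.67, 7.62 and 7.67 with TGFβ, against 8.90, 8.87 and 8.91 in untreated cells, 2.36-fold lower, with both groups tight. LINC00886 read 6.39, 6.36 and 5.90 with TGFβ, against 7.44, 7.27 and 7.34 in untreated cells, 2.19-fold lower. LINC00513 read 6.05, 5.97 and 5.95 with TGFβ, against 7.15, 7.04 and 7.09 in untreated cells, 2.15-fold lower. None of the 3 had overlapping groups, and SLC49A4, the neighbour of LINC02035, differed by only -0.02 and missed the test. LINC02551 read 6.30, 6.54 and 6.32 with TGFβ, against 7.37, 7.06 and 7.42 in untreated cells, lower by 0.90. LINC01963 read 6.95, 7.06 and 6.92 with TGFβ, against 7.69, 7.61 and 8.10 in untreated cells, lower by 0.82. LINC03068 read 7.14, 7.74 and 7.69 with TGFβ, against 8.35, 8.31 and 8.28 in untreated cells, lower by 0.79. In the last the lowest array was TGFβ replicate 1. LINC01139 read 6.37, 6.32 and 6.57 with TGFβ, against 7.19, 7.0 and 7.24 in untreated cells, lower by 0.72. LINC00526 read 6.59, 6.69 and 6.73 with TGFβ, against 7.42, 7.40 and 7.34 in untreated cells, also lower by 0.72. LINC03026 read 6.47, 6.29 and 6.48 with TGFβ, against 7.0, 7.15 and 7.08 in untreated cells, lower by 0.66. All 3 were dim RNAs with separated groups. LINC03011, among the brighter ones, read 8.59, 8.57 and 8.71 with TGFβ, against 9.28, 9.34 and 9.27 in untreated cells, lower by 0.67. Its nearest neighbour TPST1, a tyrosylprotein sulfotransferase, was higher by 0.66.

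Of the 94 probe sets of intergenic RNAs 8 were higher (8.51%, against 24.1% of all) and 30 lower (31.9%, against 26.4%). Without replicate 1 the number higher was 13. LINC02762 read 7.77, 7.81 and 7.81 with TGFβ, against 6.98, 7.18 and 6.80 in untreated cells, higher by 0.81. LINC01116, beside the HOXD cluster, read 8.53, 8.24 and 8.45 with TGFβ, against 7.64, 7.74 and 7.78 in untreated cells, higher by 0.69, and its nearest protein-coding neighbour MTX2 was higher by 0.23. LINC00623 read 10.23, 10.06 and 10.15 with TGFβ, against 9.46, 9.52 and 9.52 in untreated cells, higher by 0.64, on a probe set of the _x_at kind, whose probes can match related sequences. LINC00662, the brightest intergenic member, read 11.01, 11.10 and 11.11 with TGFβ, against 10.58, 10.58 and 10.58 in untreated cells, higher by 0.49, while its dimmer probe set differed by -0.06. LINC00621, second in signal, differed by -0.08 and missed the test.

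Genes with several probe sets showed how far a single probe set can be taken. Of 35 such genes, 9 had all probe sets called in the same direction, among them LINC00205, lower in 4 of 4 by 0.21 to 0.37, LINC00467 (-0.49 and -0.45) and LINC01089 (-0.46 and -0.44). In 15 genes the probe sets differed in sign. They were ASMTL-AS1, CKMT2-AS1, FGD5-AS1, LINC00662, LINC01016, LINC01128, LINC01134, LINC02210, LINC02987, MALAT1, MAPKAPK5-AS1, MIR9-1HG, OIP5-AS1, TRIM52-AS1 and ZNF790-AS1. Only LINC01128 had calls in opposite directions, with 1557055_s_at higher by 0.48 and 235497_at lower by 0.42. Which transcript form each of its probe sets reads was not determined.

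The remaining 90 called members changed by less than 1.5-fold, 27 higher and 63 lower, and the smallest called change was 0.19 in either direction. Small changes were also common over all probe sets tested. Of those, 24.1% were called higher and 26.4% lower, but only 6.19% and 7.1% at 1.5-fold or more. In 5 called members the groups overlapped, namely TBX2-AS1, SLC16A1-AS1, LINC01000, 1 probe set of LINC00205 and MIR3936HG. The 151 members not past the test had differences between -0.38 and 0.29. Genes of nonsense-mediated decay, the pathway that degrades many spliced host transcripts, had 2 of 9 tested probe sets higher and 1 lower. These were 22.2% and 11.1%, against 24.1% and 26.4% of all probe sets tested, and the median was 0.0006. Over the alternatives the counts ran from 0 to 2 higher and from 0 to 3 lower.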

How the data were processed

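Total RNA of 3 TGFβ and 3 untreated Panc-1 samples was made into biotinylated cRNA and hybridised by the submitters to Affymetrix U133 Plus 2.0 arrays. The authors deposited 1 value per probe set and array, which by its range (2.89 to 14.8) is on the log2 scale. No source used here names the software that summarised and normalised them. The number of arrays limits the precision.

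Groups followed the sample labels. Controls (62 probe sets) were left out, and the 21720 probe sets with a mean log2 value of at least 6.0 entered 1 linear model each (limma 3.58.1, R 4.3.3, moderated by eBayes, two-sided). The replicate number was a block, as the study compared its arrays in pairs. The fit left 2 residual and 4.16 prior degrees of freedom. Probe sets were assigned to genes through the platform annotation, with symbols checked by Entrez ID against RefSeq (295 of 298 members found, 0 symbols changed). No coordinates of array probes are given. Sequences and neighbouring genes came from RefSeq (GRCh38.p14). The members, gene lists and motifs were chosen with earlier results of these data known.

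Members called at 1.5-fold or more, and the MALAT1 and MEG3 members, were named with a value for each array. Of the others, the 2 with the highest signal of a kind, genes with probe sets of opposite sign, and the 3 members on either side of the floor were named. Sense partners, neighbours and list genes come from the same fit, and neighbours were chosen for the named members after their values were seen. Each neighbour was taken at its brightest probe set.

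The fit was also run on simulated data, and the outcome is not reported here. Alternatives covered the replicate block, the signal filter, normalisation, an added constant, the variance model, thresholds, the methods' t-test, gene means, symbols, _x_at and _s_at probe sets and each replicate left out. Tables and plots were made in Python 3.11.15 with pandas 2.3.3, numpy 2.4.6 and matplotlib 3.10.9.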

Additional observations from a re-analysis of the deposited data

How the results depend on the processing

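The 46 members called higher and 101 called lower, and the 19 and 38 among them changed at least 1.5-fold, stayed within 1.5 times in all settings but the methods' t-test after Benjamini-Hochberg adjustment. That test gave 9 higher and 15 lower members, 5 and 8 of them at 1.5-fold, of 2247 probe sets called in all, and it called 0 antisense pairs the same way and 1 opposite ways. Without adjustment the methods' t-test called 7 pairs opposite ways, and none of the 3 lowered MALAT1 probe sets passed it. Without the replicate block 50 members were higher and 102 lower, of 11560 probe sets called. Deviations of same-numbered arrays correlated at -0.26, 0.21 and 0.08, so the numbers were not shown to pair the arrays, and dropping the block moved no count by over 1.5 times. Over all probe sets, 7052 were called at an adjusted p under 0.01, 5988 as gene means and 6401 without _x_at and _s_at probe sets, the last 2 having fewer features. Against the 20 antisense pairs called the same way and 12 called opposite ways, there were 8 and 2 at the stricter threshold, 11 and 3 without a filter, and 13 called the same way without _x_at and _s_at probe sets. Leaving out each replicate gave 8 to 26 and 4 to 14 pairs. It also turned 2 MALAT1 differences that were not past the test, 224568_x_at (-0.6194 to 0.0002) and 224559_at (-0.3136 to 0.1234), and 224567_x_at turned as a gene mean (-0.4284). Of the 147 called members 9, 29 and 29 lost the call without replicates 1, 2 and 3, and none changed sign. The cause of these shifts was not tested.

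With 3 arrays a group and most members near the floor, small changes of dim RNAs are the least certain. Probe sets report parts of a transcript, which the differing probe sets of MALAT1, LINC01128 and LMNTD2-AS1 show. No paired culture is named by the sources. Strand and overlap of the probes were not checked.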

Other observations

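Well-known non-coding RNAs missed the members because their probe sets name a small RNA gene or another gene beside them. Of these shared probe sets 67 reached the floor, 23 of them called higher (34.3%, against 24.1% of all probe sets tested) and 19 lower (28.4%, against 26.4%) with TGFβ by the same limma fit. NEAT1, the scaffold of paraspeckles, shares its annotation with MIR612 and was lower in 225239_at (-1.39, with 5.94, 7.07 and 7.15 on TGFβ arrays, against 8.19, 8.15 and 7.99 on untreated arrays) and 234989_at (-1.30). Its brightest probe sets differed less, 224565_at by -0.60 (called lower) and 224566_at by -0.58 (adjusted p 0.0553, not past the test). Replicate 1 was the lowest TGFβ array in each of these NEAT1 probe sets, as it was in all 7 of MALAT1.

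Of 11 shared probe sets of MIR...HG genes 4 were higher, 1 lower (MIR600HG, -0.33) and 6 not past the test. MIR22HG, annotated with MIR22, read 10.33, 10.26 and 10.30 with TGFβ, against 9.05, 9.15 and 9.10 in untreated cells (1.20 higher). MIR23AHG, annotated with MIR23A and MIR24-2, was higher by 1.18 and 0.49 in its probe sets. The probe set shared by MIR4435-2HG and CYTOR read 11.66, 11.72 and 11.77 with TGFβ, against 10.44, 10.66 and 10.56 in untreated cells (1.16 higher), while the dim member probe set of MIR4435-2HG alone differed by 0.11. The groups of arrays were separate for MIR22HG, for both probe sets of MIR23AHG and for the probe set shared with CYTOR.

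The snoRNA hosts were again split. SNHG15 was higher by 0.76 and SNHG1 by 0.48, and SNHG12 was higher in 3 probe sets by 0.39 to 0.57. SNHG16 was higher by 0.23 and 0.26. SNHG29 was lower by 0.49 and SNHG6 by 0.23. SNHG4, annotated with MATR3 beside it, was lower in all its probe sets but 1564907_s_at, which differed by 0.20 and missed the test. The shared probe sets of SNHG5, SNHG7, SNHG8, SNHG11 and SNHG17 also missed it. GAS5, which carries many box C/D snoRNAs, was lower in its brightest probe sets (-0.33 and -0.29), at 0.00 in 228238_at and higher by 0.36 in 227517_s_at. H19, with MIR675, was higher by 0.23 and 0.19, and PVT1, with MIR1204, by 0.29.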
